A study of Mus musculus with 4 samples.

Results

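The 9 genes described here are those of the red cell: the adult globin genes Hba-a1, Hba-a2, Hbb-bs and Hbb-bt, the embryonic globin gene Hbb-y, the haem synthesis gene Alas2, the membrane gene Slc4a1, the globin chaperone gene Ahsp and the erythroid nuclear protein gene Hemgn. They were taken by name from the table of read counts, which lists 22298 genes by Ensembl identifier. Of the 9 genes, 8 were matched to a row and 7 had enough counts to be tested. No row was matched to Ahsp, which was not analysed here. The RNA came from brown adipose tissue (BAT) of C57BL/6 fetuses (C57BL/6J in the study's methods) at E18.5, the last day of gestation. The dams drank sterilized tap water in the control group or 20% (w/v) fructose water in the fructose group from mating on. Each group had 2 libraries, 4 in all. Each library is 1 sample of total RNA from whole tissue, so blood within the tissue was sequenced with it. The number of fetuses or litters behind a library is not given in the sources used here, and p-values measure only the spread between these libraries.

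Haemoglobin is built of alpha-type and beta-type globin chains, each holding a haem group that carries an iron atom. In the mouse embryo the first red cells, made in the yolk sac, use embryonic chains such as the beta-type Hbb-y and the alpha-type Hba-x. Red cells made later in the fetal liver use the adult chains, and before birth their circulating forms still hold globin mRNA. Alas2 is the erythroid form of the first enzyme of haem synthesis, Slc4a1 is the band 3 anion exchanger of the red cell membrane, and Hemgn is a nuclear protein of red cell precursors.

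The labels give all fetuses as male. Summed over Ddx3y, Eif2s3y, Uty and Kdm5d, all Y-linked, the counts were 422 and 390 in the control libraries but 0 in each fructose library, so the libraries labelled fructose go against their sex label. Every comparison below therefore sets Y-positive control libraries against Y-negative fructose libraries, and sex and fructose cannot be told apart. Alas2 is X-linked, and the other 8 genes lie on autosomes or were not matched. The counts on genes totalled 18542897 to 23645147 per library. Transcripts of the mitochondrial genome made up 5.89% and 6.49% of a control library and 10.8% and 11.2% of a fructose library, and all 10 genes of a skeletal muscle list were higher in fructose. Apart from an alternative scaling given near the end, the share of these in the results below was not tested. The labelled tissue was checked with 12 brown adipocyte markers, whose summed level was 22469 to 26356 CPM. Its defining gene Ucp1, the uncoupling protein of brown fat, had 183908 and 224071 counts in control and 248873 and 235302 in fructose. Throughout, library 1 of a group is given before library 2, and control before fructose.

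The adult genes come in pairs with near-identical coding sequences. How far reads from the untranslated parts of their transcripts separate them was not examined. Hba-a1 (chr11:32283511-32284465, plus strand) and Hba-a2 (chr11:32296489-32297298, plus strand) have coding sequences of 429 bases with 1 difference, at coding base 381. Hbb-bs (chr7:103826534-103828096, minus strand) and Hbb-bt (chr7:103812524-103813996, minus strand) have 444 coding bases with 1 difference, at coding base 417. The coordinates are those of GRCm38 (mm10). The stretches below, given 5′ to 3′ on the coding strand from the annotated transcripts, hold that base, which is in capitals. They run over coding bases 336 to 425 in the alpha pair and 355 to 444 in the beta pair.
Hba-a1: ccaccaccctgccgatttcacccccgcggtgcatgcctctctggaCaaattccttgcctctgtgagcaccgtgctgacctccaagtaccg
Hba-a2: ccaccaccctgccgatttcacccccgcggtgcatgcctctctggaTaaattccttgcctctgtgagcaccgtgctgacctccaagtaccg
Hbb-bs: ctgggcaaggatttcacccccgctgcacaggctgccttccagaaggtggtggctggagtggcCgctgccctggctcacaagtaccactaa
Hbb-bt: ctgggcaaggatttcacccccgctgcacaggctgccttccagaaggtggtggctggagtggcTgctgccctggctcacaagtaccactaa

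Of the windows of 50 coding bases in Hba-a1, 87.1% occur also in Hba-a2, and 92.9% of those in Hbb-bs occur also in Hbb-bt. The tool that counted the reads, and its treatment of strand and of reads matching more than 1 gene, are not given in the sources used here. The value of each adult gene is therefore uncertain, and the sum of a pair is given beside it. The embryonic gene Hbb-y (chr7:103851749-103853216, minus strand) is far from this problem. It differs from Hbb-bs at 114 of 444 coding bases, an identity of 74.3%, and no window of 50 of its coding bases occurs in another globin gene compared (the 4 adult genes, Hba-x and Hbb-bh1). Its first 90 coding bases are shown beside those of Hbb-bs, with the 26 differing positions in capitals.
Hbb-bs: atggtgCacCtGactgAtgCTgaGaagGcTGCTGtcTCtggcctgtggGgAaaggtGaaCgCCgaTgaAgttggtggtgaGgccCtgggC
Hbb-y: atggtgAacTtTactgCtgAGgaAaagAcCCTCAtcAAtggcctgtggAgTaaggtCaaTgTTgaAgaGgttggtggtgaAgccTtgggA

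The promoters of these genes were searched for short motifs, among them letters that erythroid factors are known to use. Any bearing of these motifs on the differences between the groups was not tested. RefSeq promoter windows (GRCm38.p6, 250 bases before to 50 after the start) were matched for 7 of the 9 genes, all but Slc4a1 and Ahsp, and both strands of the 250 bases before the start were searched. The letters CACCC, the box bound by Krüppel-like factors, occurred in 6 of the 7 promoters and in 52.0% of 32851 promoters. The letters of a GATA site, AGATAA with either A or T first and either A or G last, occurred in 6 of 7 and in 26.5% of all, CCAAT in 5 of 7 and in 33.8%, and TATAA in 6 of 7 and in 22.8%. The CACCC box nearest to the start is in capitals below, in 30 bases read on the gene's strand. In Alas2 the box lies on the opposite strand, so it appears below as GGGTG, and it is repeated.
Hba-a1, chr11:32283600-32283629, plus strand: caagggcgtgtcCACCCtgcctggaggaca
Hbb-bs, chr7:103828001-103828030, minus strand: tccgtagagccaCACCCtggtaagggccaa
Hbb-bt, chr7:103813995-103814024, minus strand: cctgcagggtaaCACCCtggcattggccaa
Hbb-y, chr7:103853301-103853330, minus strand: atgacctggctcCACCCatgaggaccacgg
Alas2, chrX:150547375-150547404, plus strand: ggGGGTGGGGTGGGGTGggcggggctgagc
The RefSeq start of Hba-a1, Hba-a2, Hbb-bs, Hbb-bt, Hbb-y and Alas2 lies inside the gene as the annotation with the coordinates above draws it. The windows of Hba-a1, Hbb-bs and Alas2 fall within those gene spans, and that of Hbb-bt overlaps its gene span in part. Those of Hba-a2 and Hbb-y lie before their gene spans. The Hba-a2 window has the same bases as that of Hba-a1, and the 2 alpha promoters were equal at 247 of 247 aligned bases. The embryonic and the adult beta genes all hold the box. A match is a description of the letters and not a site in use.

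The 7 tested genes ranked in the same order of level in every library. Per length, as CPM (counts scaled to a library's total and edgeR's TMM factor) per kilobase of the longest annotated transcript, Hbb-bs had the highest level, 13210 and 10521 in control and 8034 and 8305 in fructose. Hba-a2 followed at 8508, 6564, 5246 and 5432, then Hba-a1 at 5584, 4718, 3452 and 3635, and Hbb-bt at 2966, 2252, 1800 and 1755 CPM per kilobase. Over the 4 libraries the ranges of neighbouring adult genes overlapped, except those of Hba-a1 and Hbb-bt, while within each library the order was the same. Alas2 lay far below the globins at 91.5, 67.3, 56.5 and 61.7, Slc4a1 at 4.11, 6.65, 4.38 and 3.13, and Hbb-y at 0.667, 2.10, 1.47 and 0.967 CPM per kilobase. The embryonic alpha-type gene Hba-x, at 0.791, 0.969, 0.552 and 0.663, did not separate from Hbb-y beyond the spread of either gene.

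**Figure D1:**
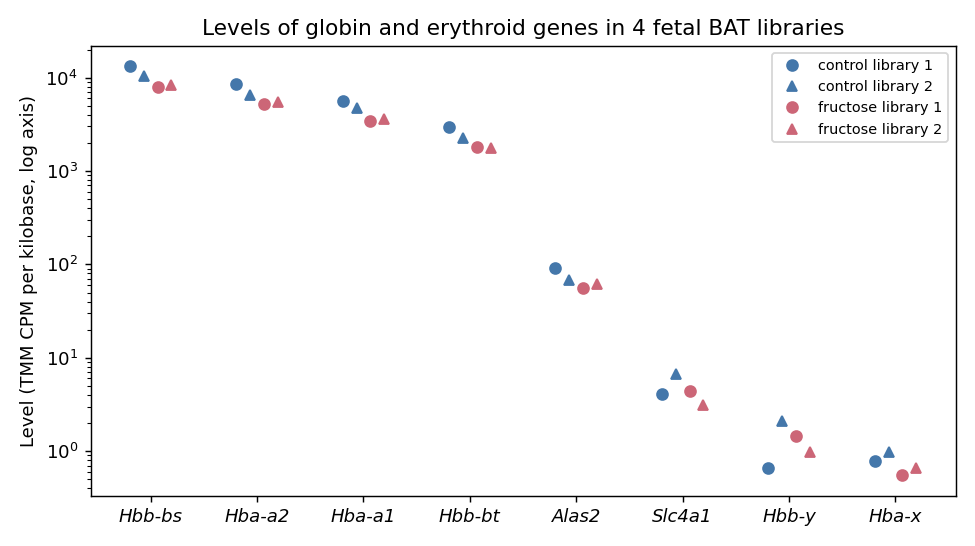
Level of 8 globin and erythroid genes (x axis) as TMM CPM per kilobase on a log axis (y axis), with 1 point per library. The adult globin genes lie at 1755 or above, Alas2 between 56.5 and 91.5, and Slc4a1, Hbb-y and Hba-x below 7 in every library.

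To find out whether red cell transcripts differed between fetal BAT of the fructose and control groups, the counts of all 12888 genes kept by edgeR's filter were tested together with edgeR's quasi-likelihood test and Benjamini-Hochberg adjustment. All 4 adult globin genes fell in fructose, by 29.2% to 31.9%, and Alas2 fell by 25.6%. Slc4a1 and the embryonic Hbb-y did not pass the test. With a call at an adjusted p-value below 0.05, 5 of the 7 tested genes were thus lower and 0 higher, against 10.7% of all tested genes lower and 26.2% called in either direction. The median log2 fold change of the 7 genes was -0.52, beside 0.00 over all tested genes. In bulk tissue, fewer red cells, less of these mRNAs per red cell and more RNA from other sources cannot be told apart. The calls also depended on the length and GC trends described below.

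Hba-a1, an adult alpha gene, had 73967 and 59475 counts in control and 54571 and 62249 in fructose. Scaled to TMM CPM, both fructose libraries (2413 and 2541) lay below both control libraries (3903 and 3298), and the log2 fold change was -0.54 (SE 0.10, adjusted p = 0.0037). Hba-a2, the other adult alpha gene, had 89312 and 65578 counts in control and 65726 and 73713 in fructose, or 4713, 3636, 2906 and 3009 CPM. Here too the groups did not overlap, and control library 1 stood above the other 3 libraries. Its log2 fold change was -0.50 (SE 0.12, adjusted p = 0.011). The alpha pair summed fell by 30.1% (log2 fold change -0.52, SE 0.11, adjusted p = 0.0071).

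Hbb-bs, the adult beta gene with the higher level, had 157201 and 119158 counts in control and 114104 and 127762 in fructose, or 8296, 6607, 5045 and 5216 CPM. The fructose libraries differed from each other by far less than the control libraries did, with a mean of 5130 ± 121 CPM (SD, n = 2) against 7452 ± 1194 CPM in control. The log2 fold change of Hbb-bs was -0.54 (SE 0.12, adjusted p = 0.0064). Hbb-bt, the other adult beta gene, had 39512 and 28549 counts in control and 28616 and 30215 in fructose, or 2085, 1583, 1265 and 1233 CPM, and fell by 0.55 on the log2 scale (SE 0.12, adjusted p = 0.0063). The beta pair summed fell by 31.3% (log2 fold change -0.54, SE 0.12, adjusted p = 0.0067). Together the 4 adult genes held 1.87% and 1.47% of all counts in control and 1.17% and 1.24% in fructose.

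**Figure D2:**
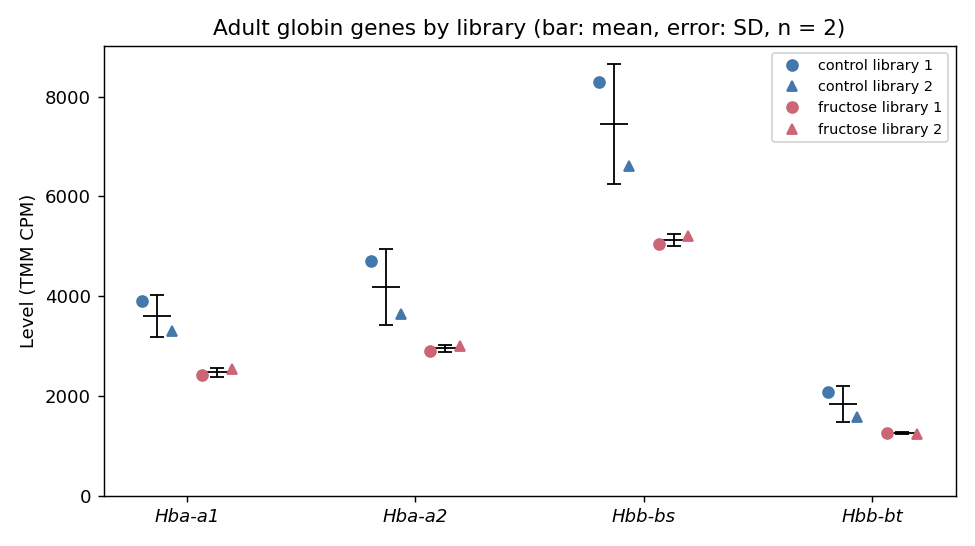
Level of each adult globin gene in TMM CPM (y axis, from 0) by gene (x axis), with 1 point per library and the mean and SD of each group (n = 2). Both fructose libraries lie below both control libraries for all 4 genes, and control library 1 is the highest.

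In 5 of the 7 tested genes, the adult globins and Alas2, both fructose libraries lay below both control libraries, as they did for 31.6% of all tested genes. The study's methods give cutoffs of a p-value below 0.05 without adjustment and more than 1.3-fold, used there with DESeq2. With edgeR's p-values and fold changes, 6 of the 7 genes passed these and were lower, against 6.18% of all tested genes. With DESeq2's Wald test 5 of the 7 passed, and the share over all genes was not counted for it. The sign of the adult globin changes did not rest on 1 library. With each library left out in turn, all 16 values of the 4 genes stayed negative. These fits assume that the lone library of a group varies like the others. The size of the changes did rest on the control libraries: Hba-a2, for example, was at -0.30 without control library 1 and -0.67 without control library 2. Hbb-bt was at -0.34 and -0.74. Without control library 1, Hba-a2, Hbb-bt and Hbb-bs (-0.37) fell by less than 1.3-fold, and Hba-a1 (-0.42) by more.

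The adult globin transcripts are among the shortest tested, and short transcripts as a whole were lower in fructose. Across all tested genes the log2 fold change rose with transcript length (Spearman's rho 0.50) and fell with GC content (rho -0.50), which are correlations across genes and not across replicates. The longest transcripts of the adult globin genes are 554 to 703 bases, and 1.09% of tested genes were as short or shorter. The 499 tested genes with a longest transcript under 1000 bases had a median log2 fold change of -0.32. When the length trend was removed from each library, Hba-a1 was at -0.22, Hba-a2 at -0.13, Hbb-bs at -0.20 and Hbb-bt at -0.23, with adjusted p-values of 0.144 to 0.403, and 1 of the 7 genes (Slc4a1) was lower, against 7.74% of all tested genes. With the GC trend removed as well, 0 of 7 were called, against 4.3% of all tested genes lower, and the adult globins were at -0.05 to -0.23. The 95% confidence interval of Hbb-bs then ran from -0.43 to 0.05 and that of Hba-a2 from -0.28 to 0.19. The adult globin decrease was thus past the threshold beside the average gene and not once the fitted length and GC trends were removed. The trends were fitted with a lowess span of 0.3, so at the globins' length the fit drew mostly on longer genes.

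**Figure D3:**
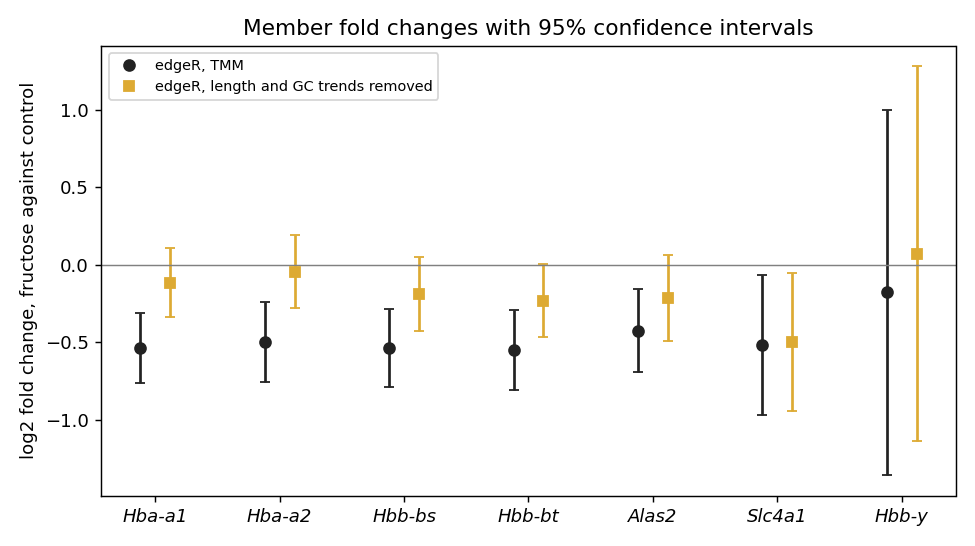
Log2 fold change, fructose against control (y axis), of the 7 tested genes (x axis) with 95% confidence intervals from edgeR, as tested and after removal of the length and GC trends from each library. The adult globins move from -0.50 to -0.55 up to -0.05 to -0.23, while Slc4a1 stays at -0.52 and -0.50.

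The embryonic globins were at the lower end of detection in all libraries. Hbb-y had 8 and 24 counts in control and 21 and 15 in fructose, and the groups overlapped. Its log2 fold change was -0.18 with a 95% confidence interval from -1.36 to 0.998 (adjusted p = 0.837), so a change as large as that of the adult genes was not detectable at this depth, in either direction. Without control library 2 it was at 0.85 and without control library 1 at -0.79. Hba-x, the embryonic alpha-type chain, had 12, 14, 10 and 13 counts (log2 fold change -0.52, SE 0.49, adjusted p = 0.459). The embryonic beta-type gene Hbb-bh1 had 1, 1, 2 and 0 counts, Hbb-bh2 had 0 counts in all 4 libraries, and the theta-type genes Hbq1a and Hbq1b had 2 to 7 counts. A count of 0 allows levels up to 0.156, 0.162, 0.134 and 0.127 CPM in the 4 libraries, set at 3 counts and for counting error only.

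The contrast of embryonic with adult globin was made within each library, where it does not depend on depth or scaling. For every 100000 counts of Hbb-bs and Hbb-bt there were 4.07 and 16.2 counts of Hbb-y in control and 14.7 and 9.50 in fructose. The control libraries spanned the whole range and the fructose libraries lay between them. The log2 ratio was -13.5 ± 1.37 (SD, n = 2) in control and -13.0 ± 0.44 in fructose, a difference of 0.52 that was smaller than the spread between control libraries (exact two-sided permutation test, p = 1.0, where 2 libraries against 2 cannot go below 0.333). The difference was -0.45 without control library 1 and 1.49 without control library 2, so these data give it no direction. With all embryonic globins (Hbb-y, Hbb-bh1 and Hba-x) set against the 4 adult genes, the shares were 5.83, 14.3, 12.5 and 9.53 per 100000 counts.

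The balance of alpha and beta mRNA, by contrast, was narrow. The log2 ratio of the alpha to the beta pair was -0.27 and -0.24 in control and -0.25 and -0.22 in fructose. The difference between the groups was 0.02, and the groups overlapped (exact two-sided permutation test, p = 0.667, smallest possible 0.333). The alpha and beta genes, which lie on different chromosomes, thus kept nearly the same proportion in all 4 libraries.

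Alas2 (chrX:150547375-150570638, plus strand) had 3533 and 2473 counts in control and 2601 and 3078 in fructose, or 186, 137, 115 and 126 CPM. The groups did not overlap, but control library 2 lay close to fructose library 2. Its log2 fold change was -0.43 (SE 0.12, adjusted p = 0.024 by edgeR's quasi-likelihood test). The call was lost without control library 1 (-0.19), without fructose library 1 (-0.36), with library sizes in place of TMM (-0.37, adjusted p = 0.062) and with the length trend removed (-0.29). Per 100000 adult globin counts there were 981 and 907 counts of Alas2 in control and 989 and 1047 in fructose. This ratio differed by 0.11 on the log2 scale (exact two-sided permutation test, p = 0.333, the smallest that 2 against 2 allows), against a fall of 0.43 in Alas2 itself.

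Slc4a1 (chr11:102348824-102366203, minus strand) had 354 and 545 counts in control and 450 and 348 in fructose, or 18.7, 30.2, 19.9 and 14.2 CPM. Control library 2 was the highest, fructose library 1 lay above control library 1, and the groups overlapped. The log2 fold change was -0.52 (SE 0.21) and did not pass the test (adjusted p = 0.084). It was -0.83 without control library 1 and -0.78 without fructose library 1, past the threshold in both cases, and -0.13 without control library 2. Slc4a1 was highest in the control library that was the lower one for every adult globin and for Alas2. Its share per 100000 adult globin counts was 98.3 and 200 in control and 171 and 118 in fructose, so that the difference between the libraries of a group exceeded that between groups (0.02 on the log2 scale, exact two-sided permutation test, p = 1.0). Its longest transcript has 4545 bases, and removal of both trends left it at -0.50.

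**Figure D4:**
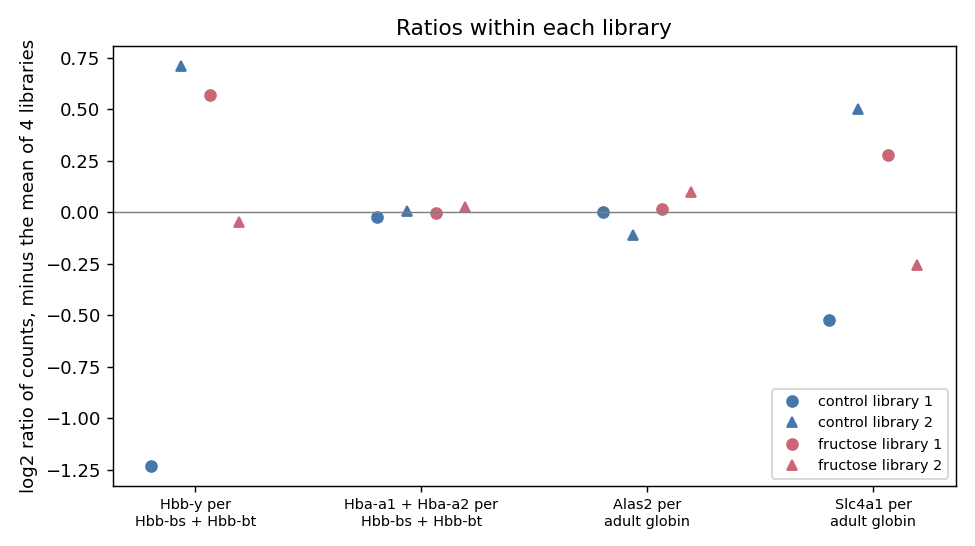
Log2 ratio of counts within each library, minus the mean of the 4 libraries (y axis), for 4 ratios (x axis), with 1 point per library. The alpha to beta ratio is tight, the ratio of Alas2 to adult globin varies little, and the ratios of Hbb-y and of Slc4a1 to globin spread as much within the control group as over all libraries.

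Hemgn (chr4:46393989-46413506, minus strand) had 0 and 5 counts in control and 9 and 1 in fructose, which was too few to test. The summed counts of Alas2, Slc4a1 and Hemgn per adult globin count differed between the groups by 0.09 on the log2 scale, with -6.53 and -6.50 in control and -6.43 and -6.42 in fructose (exact two-sided permutation test, p = 0.333, the smallest possible). Some other genes of nucleated red cell precursors were also scarce. Klf1, a factor of adult globin genes, had 7 to 13 counts, Gata1, the central erythroid factor, had 10, 16, 5 and 8 (log2 fold change -1.34, adjusted p = 0.106), and Gfi1b and Myb had at most 9 counts in any library. Of the 10 tested erythroid transcription factors and receptors, 1 fell and 0 rose, with a median log2 fold change of -0.27. That gene was Zfpm1, the GATA cofactor FOG1 (-0.56, adjusted p = 0.010), and its call was lost with the GC trend removed (-0.23, adjusted p = 0.233) and with both trends removed (-0.34, adjusted p = 0.114). The 12 genes of that list, some of which other cells also transcribe, summed to 136 and 137 CPM in control and 116 and 114 CPM in fructose.

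Of the 8 genes of haem synthesis that all cells share, 2 fell and 0 rose. They were Alad (-0.38, adjusted p = 0.0087), which joins the first product into porphobilinogen, and Urod (-0.37, adjusted p = 0.0072), a later step of the pathway. Alas1, the form of the first enzyme used outside red cells, had 36895, 30416, 36774 and 36855 counts, and its log2 fold change of -0.21 did not pass the test (adjusted p = 0.127). Of 10 genes for iron uptake and erythroid mitochondrial carriers, 2 rose and 1 fell. Tfr2, the second transferrin receptor, rose by 0.79 on the log2 scale (adjusted p = 0.015), while the ferritin light chain gene Ftl1 fell by 0.42 (adjusted p = 0.015), a call that was lost with the length trend removed (-0.14, adjusted p = 0.353) and with both removed (-0.03). The transferrin receptor gene Tfrc, on which red cell precursors depend for iron, had 1533, 826, 1422 and 1495 counts, with control library 2 lowest. The counts of called genes in these lists, like those of the members, stand beside the 26.2% called over all genes.

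Of 15 tested genes of the red cell membrane and cytoskeleton, 1 rose and 1 fell, and their median log2 fold change was 0.11. Ank1, the ankyrin that ties band 3 to the membrane skeleton and is also transcribed in striated muscle, rose from 29 and 33 counts in control to 107 and 88 in fructose (log2 fold change 1.31, adjusted p = 0.0065). Aqp1, the water channel of red cells and capillaries, fell by 0.33 on the log2 scale (adjusted p = 0.016). Epb42, which binds band 3, had 11, 16, 0 and 9 counts and did not pass the test (adjusted p = 0.102). Rhag, a membrane protein gene of the red cell lineage, had 0 and 4 counts in control and 3 and 2 in fructose. Of 8 tested red cell enzymes, 3 fell and 0 rose, namely the antioxidant enzymes Prdx2 (-0.42, adjusted p = 0.0047) and Gpx1 (-0.52, adjusted p = 0.0019) and the biliverdin reductase Blvrb (-0.42, adjusted p = 0.0041). All 3 are also made in other cells. Of 9 tested genes of reticulocyte maturation, Isg20 (-0.65, adjusted p = 0.038) and Ube2l6 (-0.45, adjusted p = 0.0080) fell and Tfdp2 (0.43, adjusted p = 0.040) rose. With both trends removed, the calls of Alad (-0.11), Urod (-0.11), Aqp1 (-0.15), Prdx2 (-0.24), Gpx1 (-0.16), Blvrb (-0.17), Isg20 (-0.28), Ube2l6 (-0.26) and Tfdp2 (0.01) were all lost, while Tfr2 (0.97) and Ank1 (1.10) stayed called. The genes then called lower in these lists were others: Fech (-0.47), which puts iron into haem, Epb41 (-0.52), a protein of the membrane skeleton, and Fbxo7 (-0.49), which had not passed as tested (-0.11, 0.11 and -0.23).

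The globins used outside red cells moved in both directions. Mb, the oxygen store of muscle, had 990 and 1080 counts in control and 1929 and 2469 in fructose and rose by 0.73 on the log2 scale (adjusted p = 8.1e-04). Cygb, the cytoglobin of fibroblast-like cells, fell by 0.41 (adjusted p = 0.0057), which was -0.15 and not called with both trends removed, where Mb stayed called at 1.05. The neuronal globin gene Ngb had at most 3 counts.

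Markers of other blood cells were examined beside the globins. Of 9 tested neutrophil markers, 7 fell and 0 rose, and their median log2 fold change was -0.71. The summed level of the 12 listed markers was 93.8 and 65.8 CPM in control and 42.0 and 51.8 CPM in fructose, so these groups did not overlap either. Lcn2 had 136, 99, 65 and 80 counts (log2 fold change -1.04, adjusted p = 0.0070) and S100a8 had 325, 177, 154 and 177 (-0.94, adjusted p = 0.010). Retnlg (-0.96), Camp (-0.78), Ltf (-0.71), Ngp (-0.71) and S100a9 (-0.70) fell as well. As for the globins, control library 1 was the highest, and without it 3 of the 9 markers were called. Without fructose library 1, 2 were called. With both trends removed the median was -0.52 and 1 was called. The early granule genes Elane, Mpo and Prtn3 had 2 to 18 counts.

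**Figure D5:**
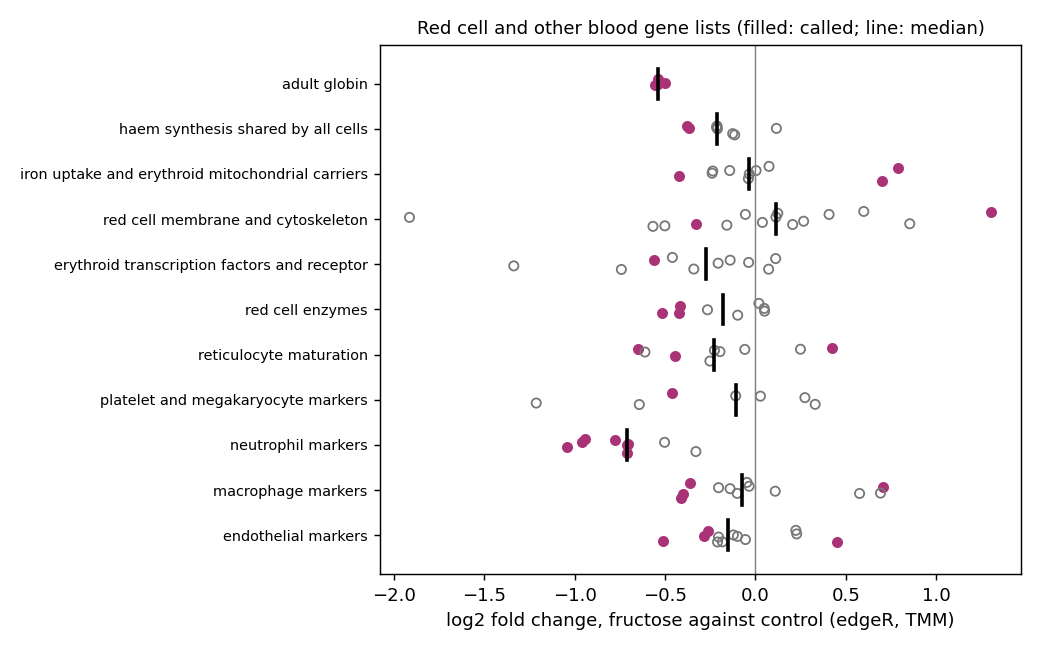
Log2 fold change, fructose against control (x axis), of each tested gene in 11 lists (y axis), with filled points for genes past an adjusted p-value of 0.05 and a black line at the list's median. The adult globins lie together near -0.54, the neutrophil markers around -0.71, and the other lists spread on both sides of 0.

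Other blood and vessel markers moved less. Of 7 tested platelet and megakaryocyte markers, 1 fell, the platelet chemokine Pf4 (-0.46, adjusted p = 0.029), and their summed level was 44.1 and 36.8 CPM in control and 34.2 and 32.7 CPM in fructose. Of 11 lymphocyte markers 2 were tested and 0 were called, with a summed level of 2.33 to 5.12 CPM. Of 12 tested macrophage markers, 3 fell and 1 rose, among them Hmox1, the haem-degrading enzyme (-0.41, adjusted p = 0.047), and the mannose receptor gene Mrc1 (0.71, adjusted p = 0.026). Of 12 endothelial markers, 3 fell and 1 rose, with Cldn5, a tight junction gene, at -0.51 (adjusted p = 0.0087) and the receptor gene Flt1 at 0.45 (adjusted p = 0.0070), and a median of -0.15. With both trends removed, 0 platelet and 0 macrophage markers were called. Of the 12 endothelial markers 1 was then called lower, against 4.3% of all tested genes. The calls of Pf4 (-0.15), Hmox1 (-0.16), Mrc1 (0.31), Cldn5 (-0.16) and Flt1 (0.21) were lost. Liver is the main blood-forming organ of the fetus. Of its 10 listed markers, 8 had at most 3 counts in every library, among them the defining genes Alb and Afp, with at most 2 and 0 counts. Trf, the transferrin gene, which other tissues also transcribe, had 12622, 5301, 10391 and 11757 counts and made up most of the list's summed level of 667 and 295 CPM in control and 460 and 481 CPM in fructose. Apoa2 had 13 to 21 counts, and neither of these 2 tested genes was called. The part of blood content in the adult globin difference was not tested.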

How the data were processed

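Total RNA of fetal BAT was sequenced in 2 control and 2 fructose libraries. The authors filtered reads with fastp, mapped them to mm10 with Bowtie2 (2.0.0.5) and TopHat2 (2.0.0), assembled transcripts with StringTie (2.2.0) and deposited raw counts per gene, without normalization. Single-library tables repeated the counts of the joint table, for all 4 libraries. Identifiers were matched to symbols, coordinates, longest transcripts and GC content with the GENCODE annotation of GRCm38, and 43 of 22298 had no match.

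Genes kept by filterByExpr (minimum count 10) entered a two-sided quasi-likelihood test in edgeR 4.0.16 (R 4.3.3), with TMM factors of 0.986, 0.973, 1.01 and 1.04, no covariate and Benjamini-Hochberg adjustment. Log2 ratios of embryonic to adult globin within a library had 0.5 counts added to each part, and the other ratios had none added. The ratios were compared with an exact permutation test over the libraries (Python 3.11.15). Alternatives were DESeq2 1.42.0, other scalings and filters, the replicate number as a block, lowess removal (span 0.3) of length and GC trends, and each library left out in turn. The script was tested on simulated data. Across the tested genes, the difference between the control libraries did not follow that between the fructose libraries (correlation -0.05). This rests on a single difference per group and cannot exclude that the numbers pair the libraries.

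The genes and the 16 other gene lists were chosen with earlier results of these data known. Named are the 9 genes, all listed globins and, of each other list, the genes called at an adjusted p-value under 0.05 (at most the 5 with the largest change) and the 3 with the highest level, though not all are described. The Y-linked genes, Fech, Epb41, Fbxo7, Apoa2, Klf1, Gfi1b, Myb, Gata1, Epb42, Rhag, Tfrc, Elane, Mpo, Prtn3, Alb and Afp were named after their values were seen.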

Additional observations from a re-analysis of the deposited data

How the results depend on the processing

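Over 15 alternatives, the count of 5 called genes became 1 with the length trend removed, 3 with the GC trend removed, 0 with both removed and 1 in the replicate block with both removed. The 1 gene was Slc4a1 in each case, which the main test did not call. By the study's thresholds the 6 genes became 1, 2, 1 and 1 under these. The alpha pair moved to -0.16, -0.36, -0.068 and -0.068 and lost the call, and the beta pair moved to -0.20, -0.19 and -0.19 and lost it in all but the GC setting. Hbb-y changed sign with the length trend removed (0.14), with both removed (0.071) and in the block with both (0.13). Epb41, at 0.11 as tested, changed sign with the length (-0.31), the GC (-0.26) and both trends removed (-0.52) and in the block with both (-0.52). Neutrophil markers called lower numbered 2 with the length trend removed, 1 with both and 4 in the block with both. Calls in the other 16 lists went from 47 to 29, 21 and 26. Over all tested genes, 2001 were higher and 1379 lower, and with both trends removed 506 and 554, in the block with both 778 and 709. With the length trend removed 1159 were higher, and with the GC trend removed 1112. Scaled by library size only, 2242 were higher and 859 lower, at a median log2 fold change of 0.06. In place of 0.09, the ratio of erythroid genes to adult globin differed by 0.28 for the membrane list, 0.11 for Alas2 and 0.022 for Slc4a1, the last 2 chosen after seeing the data. Leaving out single libraries gave 5 to 5 calls, 2 to 5 genes by the study's thresholds, 2 to 9 neutrophil markers, 27 to 52 calls in other lists, -0.66 to -0.36 for the alpha pair, -0.70 to -0.36 for the beta pair, -0.79 to 0.85 for Hbb-y, and for the ratios -0.45 to 1.49 (embryonic to adult), 0.01 to 0.04 (alpha to beta) and 0.07 to 0.11 (erythroid to globin). Over all genes these fits gave 1207 to 2225 higher and 485 to 1700 lower. The called members were not the same in all of these fits. Slc4a1 took the place of Alas2 without control library 1 (-0.83 and -0.19) and without fructose library 1 (-0.78 and -0.36). The replicate block alone called 6 genes, since Slc4a1 passed (adjusted p = 0.016), with the pairs at -0.51 and -0.53, and changed no other call of the 7 genes. Slc4a1 also passed with no low-count filter (adjusted p = 0.016). With haemoglobin and mitochondrially encoded genes left out of the library sizes, 5 genes were called, as in the main test. Hbb-y rests on 8 to 24 counts per library and 2 libraries per group. The causes of these shifts were not tested.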

Other observations

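The 5 genes whose profile over the 4 libraries lay nearest to that of the summed adult globins, by Euclidean distance of centred log2 CPM among 11942 genes with a mean of at least 1 CPM, were Ctxn1 (0.026), 1190005I06Rik (0.027), H1fx (0.029), Slpi (0.036) and Rpl32 (0.047). Ctxn1 encodes a small neuronal membrane protein, H1fx a linker histone, Slpi a secreted protease inhibitor and Rpl32 a ribosomal protein, and none of them is on a red cell list. Their longest transcripts have 844 to 1217 bases, beside a median of 3433 over all tested genes. Rpl32 had 9175 and 7236 counts in control and 6712 and 7621 in fructose, with a log2 fold change of -0.54 (adjusted p = 0.0028 by edgeR's quasi-likelihood test) and -0.24 once both trends were removed. Of the 50 nearest genes, 17 were Rpl or Rps genes of the cytosolic ribosome, and the share of such genes among all ranked genes was not counted. With 4 libraries a profile has few degrees of freedom, and likeness of this kind is a description.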
